A study of Homo sapiens with 3 samples.

Results

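The genes described here were the cytoplasmic actins and 3 of their partners: ACTB, ACTG1, CFL1, PFN1 and TMSB10. Their members were the positions on each gene's strand inside a fixed window of the human genome build hg19. The windows were 7:5566500-5570400 on the minus strand for ACTB, 17:79476700-79480100 on the minus strand for ACTG1 and 11:65622000-65629700 on the minus strand for CFL1. They were 17:4848700-4852600 on the minus strand for PFN1 and 2:85132600-85134100 on the plus strand for TMSB10. Of 1730926 positions with counts in the series, 326 lay in these windows, and of 10843 nuclear sites compared, 6 did: the main end of each gene and a minor end of CFL1. The rule for the windows used no measured values, but the members were chosen with earlier results of these data known. The data were 3′ end counts of polyadenylated RNA from HEK293T, a widely used line derived from human embryonic kidney. The assay, 2P-seq, reads where an mRNA joins its poly(A) tail. There was 1 library per group. The first held RNA captured after 60 min of labelling with the nucleoside analogue 4-thiouridine (4sU), and the second held RNA captured after 30 min. The last was an input library, which the design treats as steady-state RNA. By its title it belongs to the 30 min labelling, but its treatment is entered as none. Per the labels' protocols, the 4sU libraries left out a first poly(A) selection. In every comparison with input below, capture and that selection therefore cannot be told apart. The 60 min library had no input of its own.

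The series asks how structures at 3′ ends bear on mRNA processing and stability, and captured RNA is enriched for molecules made while 4sU was present. Actin monomers assemble into filaments that give a cell its shape and let it move. ACTB and ACTG1 encode the beta and gamma cytoplasmic actins, nearly identical proteins present in almost every cell. PFN1 encodes profilin, which feeds monomers to growing filaments, CFL1 encodes cofilin, which severs old filaments, and TMSB10 encodes a beta-thymosin that holds monomers back from assembly.

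Levels are given as counts per 1000000 nuclear counts (CPM), with mitochondrial counts left out. An mRNA gives 1 read at its 3′ end whatever its length, so levels of different genes are compared without a length correction. Whether capture recovers long and short mRNAs equally was not tested. The orders of genes and the contrasts between genes in captured RNA carry this limit. Nuclear counts summed to 6151986 for the 60 min library, 9652023 for the 30 min library and 32768468 for the input. Mitochondrial RNA took 31.1% of all counts at 60 min and 31.8% at 30 min, against 7.46% in input. No difference below has a replicate check. Intervals are 95% and cover counting error only, and the protocol names no molecular identifiers. CPM values are shares of a library, so a ratio says nothing of absolute amounts. The label of the cell line was not checked against marker genes, because no annotation of the tables' build was used here. Within 50 nt of the 3′ boundaries that the GRCh38.p14 gene table gives for the 5 genes, the tables held 1 count in all, so the positions are not in that build.

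The actins stood above input in both captured libraries, PFN1 and TMSB10 stood below it, and CFL1 lay between them, slightly below input. A call needed a ratio of at least 2-fold with an interval that excludes 1. At 60 min no gene was called higher and 2 were called lower, PFN1 and TMSB10. Among all 10843 sites 27.3% were called higher and 21.8% lower in that comparison. At 30 min 1 gene was called higher, ACTB, and 1 lower, TMSB10. Among all sites 35.3% were then called higher and 17.1% lower. With 5 genes, these counts show nothing particular to the genes. The direction of each gene's ratio to input was the same under the 3 other scalings tried, while the call of ACTB at 30 min was lost under all 3 and PFN1 was called lower at 30 min under all 3.

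ACTG1, the gamma actin gene, was the most abundant of the genes in every library, with 5649 CPM at 60 min and 4907 CPM at 30 min, against 3469 CPM in input. Both captured libraries lay above the input. The ratio to input was 1.63 at 60 min (1.61 to 1.65) and 1.41 at 30 min (1.40 to 1.43), under the 2-fold needed for a call. Under the other scalings the 30 min ratio was as low as 1.04, with mitochondrial counts in the total. Its main end ranked 5 among nuclear sites at 60 min and 4 at 30 min, against 33 in input. ACTG1 held 91.6% of the counts of the 5 genes at 60 min and 88.9% at 30 min, against 80.2% in input.

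ACTB, the beta actin gene, had 144 CPM at 60 min and 162 CPM at 30 min, against 76.5 CPM in input. The captured libraries were again both above the input. The ratio was 1.89 at 60 min (1.75 to 2.04) and 2.12 at 30 min (1.99 to 2.25). Under the other scalings the ratio at 30 min ran from 1.56 to 1.65. The log2 ratio to input of ACTB exceeded that of ACTG1 by 0.21 at 60 min (0.10 to 0.32) and by 0.58 at 30 min (0.49 to 0.67), differences that scaling does not move. ACTB was the lowest of the 5 genes in input and ranked the third in both captured libraries.

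The actins differed far more from each other in level than in ratio. There were 39.1 ACTG1 counts per ACTB count at 60 min (36.6 to 41.9) and 30.3 at 30 min (28.8 to 31.9), against 45.4 in input (43.6 to 47.2). Processed copies of these genes could share reads with them. The GRCh38.p14 gene table names 14 pseudogenes after ACTB, 21 after ACTG1, 8 after CFL1, 10 after PFN1 and 2 after TMSB10. The sources used here do not say how such reads were treated, so the level of each gene is uncertain by an unknown amount. The part of shared reads in these levels was not tested.

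**Figure D1:**
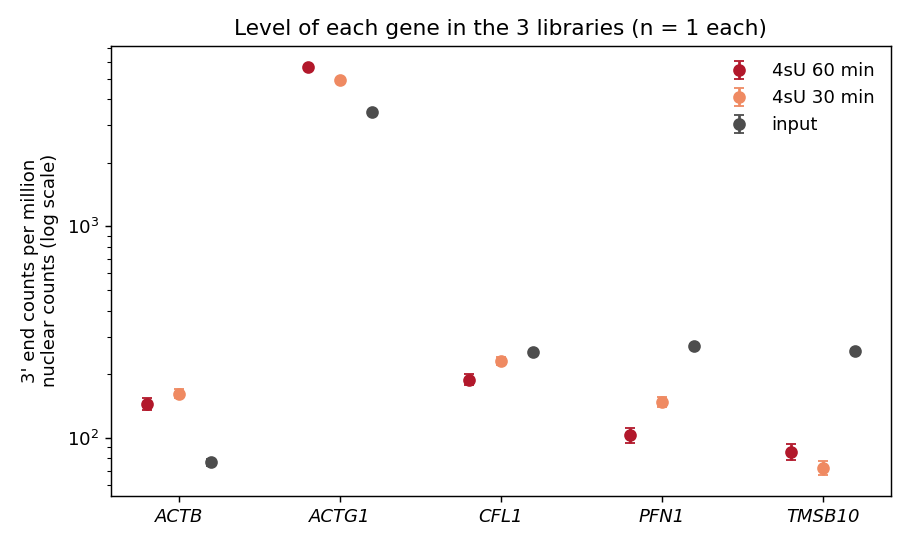
Level of each gene in nuclear CPM, on a log axis, in the 4sU 60 min, 4sU 30 min and input libraries (n = 1 each; bars are 95% Poisson intervals). Both actins lie higher in the captured libraries, and PFN1 and TMSB10 lie lower, at 103 and 148 CPM against 271 CPM in input for PFN1 and at 86.0 and 71.8 CPM against 257 CPM in input for TMSB10.

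CFL1, which encodes the filament-severing protein cofilin, had 188 CPM at 60 min and 230.1 CPM at 30 min, against 253 CPM in input. The input was the highest of the 3 values and the 30 min library lay close to it. The ratio was 0.743 at 60 min (0.698 to 0.790) and 0.909 at 30 min (0.867 to 0.952). In its ratio to input ACTG1 stood 2.19-fold above CFL1 at 60 min (2.06 to 2.33) and 1.56-fold at 30 min (1.48 to 1.63).

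PFN1, the profilin gene, had 103 CPM at 60 min and 148 CPM at 30 min, against 271 CPM in input. The 3 values differed by more than counting error, and the input was the highest. PFN1 was 2.64-fold lower than input at 60 min (2.44 to 2.87) and 1.83-fold lower at 30 min (1.73 to 1.94), where it was not called. Under the 3 other scalings the 30 min ratio ran from 0.401 to 0.425 and passed the 2-fold threshold. Its main end had a lower ratio than most sites: 12.0% of sites lay below it at 60 min and 18.9% at 30 min.

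TMSB10, the beta-thymosin gene, had 86.0 CPM at 60 min and 71.8 CPM at 30 min, against 257 CPM in input. It was the lowest of the 5 genes in both captured libraries. TMSB10 was 2.98-fold lower than input at 60 min (2.73 to 3.27) and 3.57-fold lower at 30 min (3.31 to 3.87), and it was called lower under every scaling tried. At 60 min 9.41% of sites had a lower ratio than its main end, and at 30 min 4.76%. Between TMSB10 and ACTB the ratios to input differed 5.63-fold at 60 min (5.01 to 6.33) and 7.57-fold at 30 min (6.85 to 8.36).

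The order of levels changed between captured and input RNA. At 60 min it ran ACTG1, CFL1, ACTB, PFN1 and TMSB10, and each neighbour differed by more than counting error, the closest being PFN1 over TMSB10 at 1.19 (1.06 to 1.34). At 30 min the order was the same, with ACTB over PFN1 at 1.09 (1.02 to 1.18). In input it ran ACTG1, PFN1, TMSB10, CFL1 and ACTB. There TMSB10 and CFL1 could not be told apart, with a ratio of 1.01 (0.983 to 1.04), and PFN1 over TMSB10 was 1.06 (1.03 to 1.09).

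Between the labelling times no gene of the 5 was called in either direction, where 4.58% of all sites were called higher at 60 min and 14% lower. The ratio of 60 to 30 min was 1.20 for TMSB10 (1.07 to 1.34) and 1.15 for ACTG1 (1.14 to 1.17). It was 0.892 for ACTB (0.820 to 0.969), 0.818 for CFL1 (0.761 to 0.879) and 0.694 for PFN1 (0.631 to 0.763). On the log2 scale the median was -0.16 over the 5 genes and -0.27 over all sites. The direction of ACTB turned under other scalings, to 1.10 with median of ratios and to 1.07 with TMM, and that of CFL1 turned to 1.01 with median of ratios. TMSB10, ACTG1 and PFN1 kept their direction under each scaling. Between genes, which no scaling moves, TMSB10 stood 1.72-fold above PFN1 (1.49 to 2.00) and ACTG1 1.66-fold above PFN1 (1.51 to 1.82). TMSB10 and ACTG1 differed by 1.04-fold with an interval that includes 1 (0.928 to 1.17), as did ACTB and CFL1 at 1.09-fold (0.978 to 1.22).

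**Figure D2:**
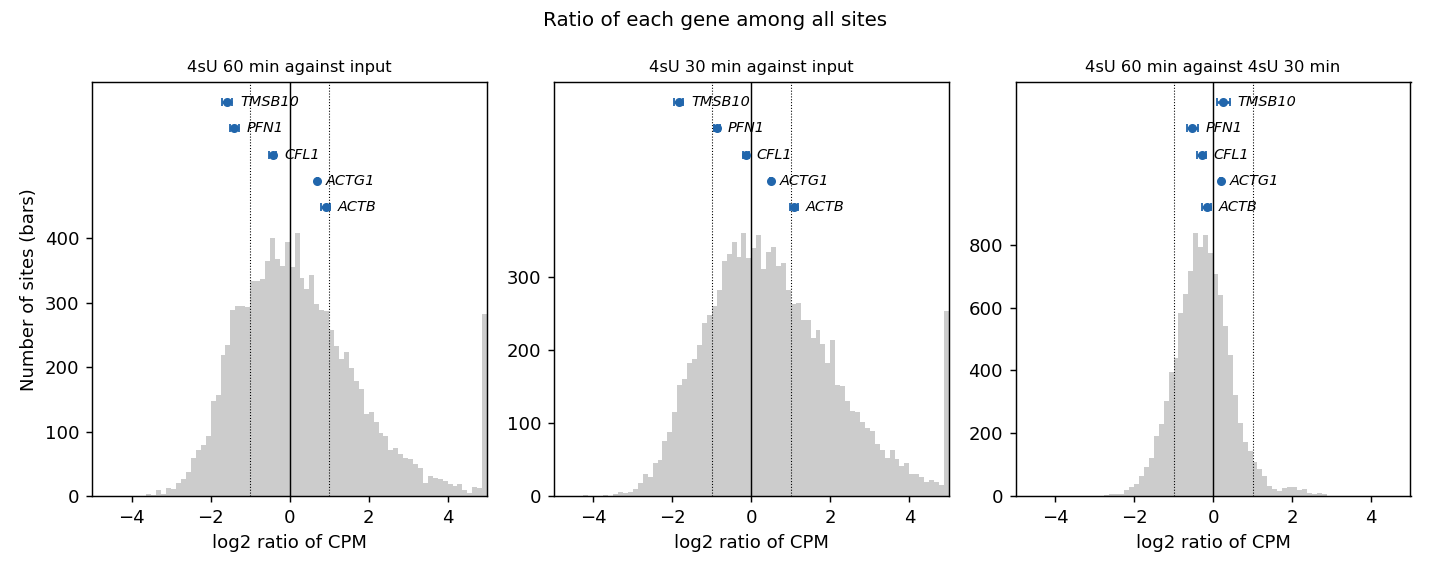
Log2 ratio of CPM of each gene (points, with 95% counting intervals) above the distribution over 10843 sites (bars, number of sites; sites past the ends of the axis are counted in the outermost bars), for 4sU 60 min against input, 4sU 30 min against input and 4sU 60 min against 30 min. Dotted lines mark 2-fold; the genes spread on both sides of 0 against input, from -1.58 to 0.92 at 60 min and from -1.84 to 1.08 at 30 min, and lie from -0.53 to 0.26 between labelling times.

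The balance of calls over all sites depended on scaling. Higher sites were 55.7% of calls at 60 min and 67.3% at 30 min with nuclear CPM. They were 38.2% and 50.2% with mitochondrial counts in the total, 52.7% and 53.1% under scaling by the median of ratios, and 51.1% and 53.5% under TMM, in the same order. Between 60 and 30 min they were 24.6%, 25.9%, 55.0% and 50.3% in the order of those scalings. Including mitochondrial counts moved every log2 ratio to input by -0.43 at 60 min and -0.44 at 30 min, while the median of ratios moved it by -0.068 and -0.37, and TMM by -0.10 and -0.36. Between 60 and 30 min these last scalings moved it by 0.30 and 0.26. The median log2 ratio of the 5 genes to input was -0.43 at 60 min and -0.14 at 30 min, where that of all sites was 0.063 and 0.37.

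The region before the transcription start is shown for the gene with the highest level and for the gene furthest below input. Level and ratio to input are different measures, so the pair is not a contrast in captured RNA. The CArG box is the binding site of serum response factor, a known regulator of actin genes. RefSeq's promoter table, in build GRCh38.p14, held 4 of the 5 genes. ACTB, the gene furthest above input, had no entry. The 250 bases before the start lie at chr17:81512800-81513049 on the minus strand for ACTG1 and at chr2:84905406-84905655 on the plus strand for TMSB10. Capitals mark the motifs searched on both strands, the CArG box, the TATA box (TATAAA), the CCAAT box (CCAAT) and the GC box (GGGCGG), and adjoining GC boxes overlap by 1 base.
ACTG1: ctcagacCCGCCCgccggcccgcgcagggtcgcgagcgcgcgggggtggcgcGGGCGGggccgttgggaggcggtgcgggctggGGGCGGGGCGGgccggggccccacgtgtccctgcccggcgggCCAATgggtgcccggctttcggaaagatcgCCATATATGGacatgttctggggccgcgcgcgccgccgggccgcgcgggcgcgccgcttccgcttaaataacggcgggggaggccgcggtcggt
TMSB10: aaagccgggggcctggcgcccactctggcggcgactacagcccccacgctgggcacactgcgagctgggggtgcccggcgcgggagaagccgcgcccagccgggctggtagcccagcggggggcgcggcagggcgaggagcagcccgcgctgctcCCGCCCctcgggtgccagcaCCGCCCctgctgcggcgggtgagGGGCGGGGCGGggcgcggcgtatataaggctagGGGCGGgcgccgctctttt
ACTG1 held a CArG box starting 94 bases before the start, a CCAAT box and 4 GC boxes. TMSB10 held 5 GC boxes and none of the other motifs as searched. For the TATA box only the letters TATAAA were searched. Near their starts the TMSB10 sequence reads tatataag and the ACTG1 sequence reads ttaaataa, AT-rich stretches that the search did not count. PFN1 held 2 GC boxes and CFL1 2 CCAAT boxes and 2 GC boxes, both with no CArG or TATA box. Of 35114 promoters of this length, 1.16% held a CArG box, 10.7% a TATA box, 32.0% a CCAAT box and 42.6% a GC box. A match is a description of letters only, and the 3′ end counts do not test it.

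Each gene had a dominant 3′ end. Positions within 24 nt of a local maximum were merged into a site, and a site was described if it held at least 20 counts and 1% of its gene in a library. ACTG1, PFN1 and TMSB10 each had 1 such site, at 17:79476999, 17:4848952 and 2:85133794. ACTB had 2 and CFL1 had 4. The minor sites are called ends below. Whether each is a true poly(A) end was not tested, since no sequence of the tables' build was used. The main end of ACTG1 held 99.8% of the gene's counts at 60 min and 99.6% at 30 min, against 99.8% in input. That of TMSB10 held 99.1% and 99.3%, against 99.8% in input. The remaining sites, from 6 in TMSB10 to 25 in ACTG1, each fell short of these minimums.

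At ACTB a minor end lay at 7:5566963, 183 nt upstream of the main end at 7:5566780. It had 24 counts at 60 min and 55 at 30 min, against 15 in input. It was 8.52-fold higher than input at 60 min (4.29 to 17.5) and 12.4-fold higher at 30 min (6.93 to 23.7). The main end was 1.84-fold (1.70 to 1.98) and 2.05-fold (1.92 to 2.19) in the same comparisons. The minor end's share of ACTB was 2.70% at 60 min (1.82 to 3.99) and 3.52% at 30 min (2.72 to 4.56), against 0.599% in input (0.363 to 0.985). The share was thus 2.10 points higher than in input at 60 min (1.14 to 3.41) and 2.92 points at 30 min (2.03 to 3.98).

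CFL1 showed the opposite at its largest minor end. The end at 11:65622394, 107 nt upstream of the main end at 11:65622287, had 53 counts at 60 min and 112 at 30 min, against 725 in input. Its share of CFL1 was 4.58% at 60 min (3.52 to 5.94) and 5.04% at 30 min (4.21 to 6.03), against 8.74% in input (8.15 to 9.36). Its ratio to input was 0.389 at 60 min (0.289 to 0.515), called lower, and 0.524 at 30 min (0.426 to 0.641), while that of the main end was 0.755 (0.707 to 0.806) and 0.935 (0.890 to 0.982).

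The downstream end of CFL1 at 11:65622146, 141 nt past the main end, set the labelling times apart. It held 2.68% of the gene at 60 min (1.89 to 3.77) and 1.08% at 30 min (0.727 to 1.60), against 0.928% in input (0.743 to 1.16). It rested on 31 counts at 60 min and 24 at 30 min, against 77 in input. It was 2.03-fold higher at 60 than at 30 min (1.15 to 3.61) and 2.14-fold higher than input at 60 min (1.37 to 3.29). At 11:65622427, 140 nt upstream of the main end, the ratio to input had intervals that include 1 at both times, with 13 counts at 60 min and 28 at 30 min, against 64 in input.

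**Figure D3:**
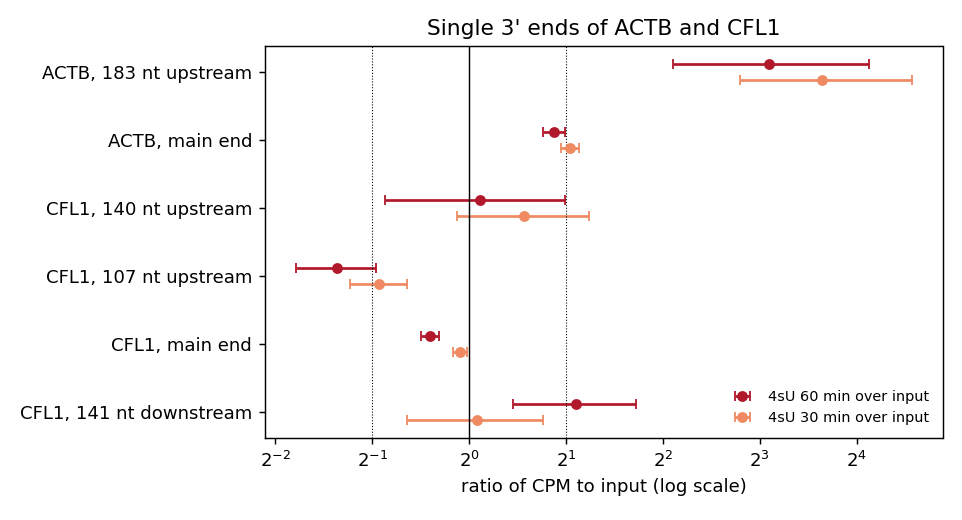
Ratio of CPM to input, on a log axis, of the ends of ACTB and CFL1 described in the text, in 4sU 60 min and 4sU 30 min (points, with 95% counting intervals; dotted lines mark 2-fold). The ACTB end 183 nt upstream stands at 8.52 and 12.4, above the main ACTB end at 1.84 and 2.05, and the CFL1 end 107 nt upstream stands at 0.389 and 0.524, below the main CFL1 end at 0.755 and 0.935.

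Counts outside the main end made up more of the gene in both captured libraries for 3 of the 5 genes. For PFN1 they were 3.48% at 60 min (22 of 632 counts, 2.31 to 5.21) and 2.45% at 30 min (35 of 1428, 1.77 to 3.39), against 0.191% in input (17 of 8895, 0.119 to 0.306). For ACTB they were 3.72% (2.66 to 5.17) and 3.97% (3.11 to 5.06), against 0.998% in input (0.677 to 1.47). For TMSB10 they were 0.945% and 0.722%, each from 5 counts, against 0.166% in input. The interval of the difference from input lay above 0 in these 3 genes at both times.

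ACTG1 had 0.193% of its counts outside the main end at 60 min (0.152 to 0.245) and 0.376% at 30 min (0.325 to 0.435), against 0.164% in input (0.142 to 0.189). The 30 min share was higher than in input, by 0.212 points (0.155 to 0.275), and the 60 min difference had an interval that includes 0. CFL1 had 9.33% at 60 min (7.78 to 11.1) and 8.15% at 30 min (7.08 to 9.36), against 10.7% in input (10.1 to 11.4). At 30 min CFL1 was 2.60 points lower than input (1.22 to 3.87), and the 60 min difference had an interval that includes 0.

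The same share was taken around 2853 abundant sites, from 3000 nt upstream to 300 nt downstream; each had 50 CPM or more on average and held most of the counts around it. By that measure 3 of the 5 genes had a higher share than input at 60 min, where 29% of the sites did, and 4 of the 5 at 30 min, where 36.4% did. The median difference over the sites was 0.106 points at 60 min and 0.176 points at 30 min. ACTB stood at 2.61 and 2.91 points, PFN1 at 1.26 and 1.22 points, and CFL1 at -1.49 and -2.63 points.

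A far upstream site in the PFN1 window had counts in both captured libraries and none in input. Whether it belongs to PFN1 mRNA was not tested. It held 11 of the 22 counts outside the main end at 60 min and 14 of the 35 at 30 min. It lies beyond the 3000 nt used around the abundant sites, so the PFN1 values there leave it out. At 17:4852359, 3407 nt upstream of the main end and close to the upstream edge of the window, there were 11 counts at 60 min and 14 at 30 min, against 0 in input. With the input put at a floor of 3 counts in its library, the site was 19.5-fold higher at 60 min and 15.8-fold higher at 30 min. These folds leave out the counting error of the captured counts. It fell short of 20 counts in each library and was chosen after its values were seen. The 0 of 8895 PFN1 counts in input allows a share of up to 0.0337%.

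**Figure D4:**
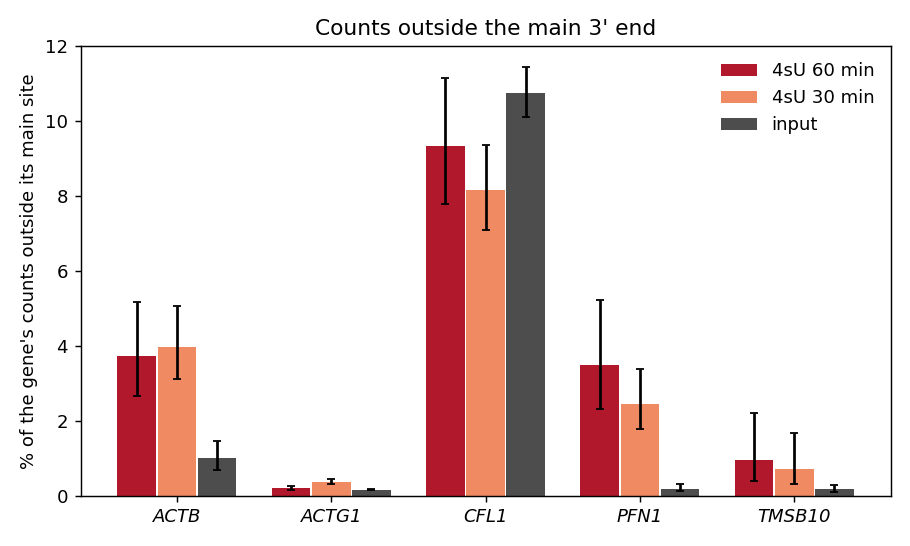
Percent of each gene's counts outside its main 3′ end in the 4sU 60 min, 4sU 30 min and input libraries (bars from 0, with Wilson 95% intervals, n = 1 library each). PFN1, ACTB and TMSB10 show larger shares in both captured libraries, and CFL1 shows its largest share in input, at 10.7%.

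Within the main ends, the nucleotide with the most counts was the same in all libraries for each of the 5 genes. It held 60.5% of the ACTG1 end at 60 min (60.0 to 61.0) and 57.6% at 30 min (57.1 to 58.0), against 64.3% in input (64.0 to 64.6). At TMSB10 it held 55.9% (51.6 to 60.1) and 49.3% (45.6 to 53.0), against 62.7% in input (61.6 to 63.7). At PFN1 it held 50.3% (46.4 to 54.3) and 52.8% (50.1 to 55.4), against 55.8% in input (54.8 to 56.9). In these 3 genes the counts were less concentrated in captured RNA than in input. Many other sites were also wider by another measure, the SD of positions. Of 4874 sites averaging 30 CPM or more, 59.2% had a larger SD than in input at 60 min and 70.1% at 30 min. ACTB had 51.8% at 60 min and 46.9% at 30 min, against 48.8% in input, with intervals of the difference from input that include 0.

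The shares of neighbouring nucleotides differed from input in both directions. In ACTG1 the position 1 nt downstream of the highest, 17:79476998, held 25.5% at 60 min, below input, and 27.1% at 30 min, above it, against 26.3% in input. The intervals of both differences exclude 0 (-1.36 to -0.31 points at 60 min and 0.345 to 1.30 points at 30 min). The position 2 nt downstream, 17:79476997, which was chosen after its values were seen, held 4.29% at 60 min and 4.63% at 30 min, against 2.03% in input. The position 1 nt upstream, 17:79477000, held 6.11% and 6.80%, against 4.31% in input. In TMSB10 the position 1 nt downstream, 2:85133795, held 14.9% and 18.3%, against 10.9% in input. These last 3 positions held more than in input beyond counting error at both times. In ACTB the position 1 nt downstream, 7:5566779, held less, with 20.7% at 60 min and 20.6% at 30 min, against 24.6% in input. The position 2 nt downstream, 7:5566778, chosen after its values were seen, held more, with 7.37% and 6.20%, against 4.19% in input. The position 1 nt upstream, 7:5566781, held 17.7% and 22.3%, against 19.3% in input, and the 60 min difference had an interval that includes 0. PFN1 had a second maximum 3 nt downstream, at 17:4848949, which held 20.8% and 18.2%, against 19.1% in input, differences within counting error. So did TMSB10 5 nt downstream, at 2:85133799, with 9.73% and 8.87%, against 9.88% in input.

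The CFL1 end spread over a wider zone, with an SD of positions of 7.13 nt at 60 min and 7.53 nt at 30 min, against 8.17 nt in input. The SD of the other 4 genes ran from 0.749 to 2.65 nt over the libraries. The highest nucleotide of the CFL1 end held 38.2% at 60 min (35.3 to 41.2) and 35.2% at 30 min (33.2 to 37.3), against 31.2% in input (30.2 to 32.3). The second highest, 2 nt upstream at 11:65622289, held 20.7% at 60 min and 15.4% at 30 min, against 22.5% in input. Its 30 min difference from input was -7.04 points (-8.82 to -5.16), and the 60 min difference had an interval that includes 0. The position 19 nt downstream, 11:65622268, chosen after its values were seen, held 5.62% and 6.42%, against 12.6% in input. The position 13 nt downstream, 11:65622274, held 11.8% at 60 min and 17.0% at 30 min, against 10.5% in input, and the 60 min difference had an interval that includes 0. Positions from 9 nt downstream onward held 29.6% of the end at 60 min (26.9 to 32.5) and 40.5% at 30 min (38.4 to 42.6), against 34.8% in input (33.7 to 35.9), a split chosen after the profile was seen. With a merging distance of 10 nt the main end held 65.5% of CFL1 at 60 min and 57.3% at 30 min, against 59.6% in input.

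The mean position of the CFL1 end lay 1.25 nt upstream of input at 60 min (0.784 to 1.72), and at 30 min its interval included input, at 0.342 nt downstream (-0.0337 to 0.718). Of the 4874 sites averaging 30 CPM or more, 1.74% were shifted further upstream than CFL1 at 60 min. The CFL1 end lay 1.60 nt further upstream at 60 than at 30 min (1.05 to 2.14), and 0.144% of those sites were shifted further that way. Those sites were not matched to the CFL1 end in width, and a wider end allows a larger shift. ACTG1 lay 0.0311 nt downstream of input at 60 min (0.0214 to 0.0409) and 0.0481 nt at 30 min (0.0392 to 0.0569), where the median site lay upstream, by 0.106 and 0.117 nt. For ACTB, PFN1 and TMSB10 the shift from input had intervals that include 0 at both times.

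**Figure D5:**
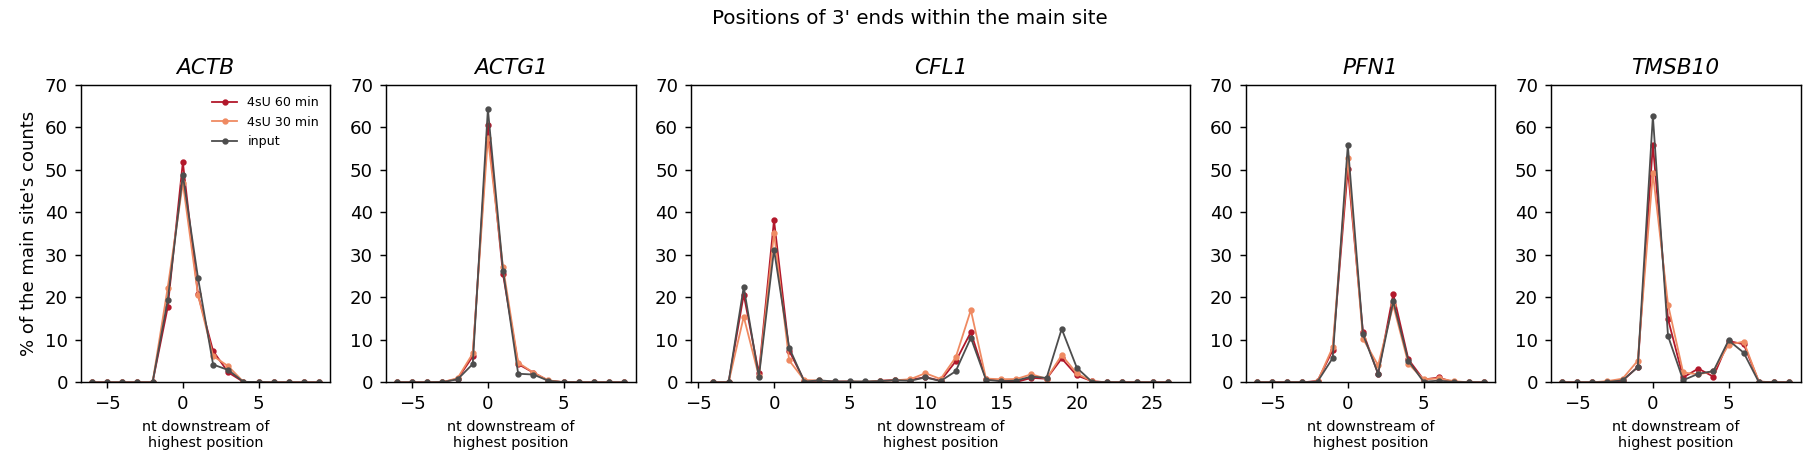
Percent of the main end's counts at each nucleotide, by distance in nt downstream of the nucleotide with the most counts, for the 5 genes in the 4sU 60 min, 4sU 30 min and input libraries (1 line each, n = 1). ACTB, ACTG1, PFN1 and TMSB10 end within a few nucleotides. CFL1 has further maxima 2 nt upstream and 13 and 19 nt downstream, the last of these at 12.6% in input and 6.42% or less in captured RNA.

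For the main end of each gene, the most similar site elsewhere was found among 1517 nuclear sites averaging 100 CPM or more. Likeness was the distance between the log2 ratios to input at 60 and 30 min, over the 3 libraries, and both ratios share the input. The closest site was 22:36677327 on the minus strand for ACTB, at a distance of 0.0368, and 6:33180490 on the plus strand for ACTG1, at 0.0485. It was 16:69202923 on the plus strand for CFL1, at 0.0190, 12:50156782 on the plus strand for PFN1, at 0.0271, and 6:160200082 on the plus strand for TMSB10, at 0.0248. The next closest sites lay at distances from 0.0273 to 0.0710. No gene was assigned to these sites.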

How the data were processed

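RNA 3′ ends of HEK293T cells were read by 2P-seq in 3 libraries, those of captured RNA after labelling with 4sU. The labels do not settle whether the input cells were labelled. Each library has a deposited table, without header, of whole-number counts per position and strand, which the authors left unnormalized as the values show. The tools cutadapt and Bowtie are listed per the submitters' processing notes. Not given in the sources used here are their versions and roles, the build, and what became of multi-mapping reads. Positions are printed 1-based, and each table's strand was read as the RNA's.

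The members and lists were chosen with earlier results of these data known. Counts were summed per window and per site (24 nt merging) and scaled to CPM of nuclear counts in Python 3.11.15. Ratios carry exact Clopper-Pearson intervals from the split of the counts, shares Wilson intervals and their differences Newcombe intervals. The sites averaging 10 CPM or more gave the background. With 1 library per group, the spread between samples is unknown and no p-value is given. The calls of 30 min against input were tested on simulated Poisson counts. The intervals assume the same model, so that test cannot show how calls behave with spread between samples. Alternatives were other scalings (chrM included, median of ratios, TMM from edgeR 4.0.16), merging distances, filters and folds. The rule for named items took all 5 genes, each site of at least 20 counts and 1% of its gene, the 3 highest positions of a site, and the 2 sites most like each main end, by position. A further list of actin pathway genes and cell markers was not analysed here, since no annotation of the tables' build was used, and gave no result.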

Additional observations from a re-analysis of the deposited data

Results flagged for a closer look

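The other strand of the windows, which no comparison uses, held counts above the input level in 2 genes. Opposite CFL1 there were 3.005 CPM at 30 min (29 counts), against 1.53 CPM in input (50 counts), a ratio of 1.97 (1.20 to 3.17). Opposite PFN1 there were 1.95 CPM at 60 min (12 counts) and 0.829 CPM at 30 min (8 counts), against 0.244 CPM in input (8 counts), with ratios of 7.99 (3.003 to 22.5) and 3.40 (1.11 to 10.4). The other strand of ACTB and TMSB10 had 0 counts in all libraries, and that of ACTG1 had 1 count. The source of these counts was not tested.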

How the results depend on the processing

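Ratios of genes were recomputed under 3 scalings, with the main end alone and without the highest position. Of these values, 66 kept their direction and their side of the 2-fold threshold, 3 no longer passed it, 3 passed it anew and 3 turned. The ratio of ACTB at 30 min to input fell below the threshold at 1.56 with mitochondrial counts in the total, 1.64 when scaled by the median of ratios and 1.65 under TMM. PFN1 passed it at 0.401, 0.422 and 0.425 in the same order. In the ratio of 60 to 30 min, ACTB turned to 1.10 under the median of ratios and 1.07 under TMM, and CFL1 to 1.01 under the median of ratios. These shifts are those of the scaling factors, common to all genes.

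Numbers of sites called moved by over 1.5 times under some filters and settings. With a mean CPM of at least 1 there were 15062 higher and 6816 lower at 60 min against input, 19615 and 4992 at 30 min, and 3260 and 7245 between times. With at least 50 there were 702 and 697, 839 and 679, and 124 and 216. With a 1.5-fold threshold, 2814 were lower at 30 min, and between times 1149 were higher and 3408 lower. With mitochondrial counts in the total, 2898 were lower at 30 min. Between times there were 897 and 735 under the median of ratios, and 822 and 811 under TMM. The filters change the number of sites tested, from 10843 to 40146 with at least 1 and 3041 with at least 50. The other settings change the scale or the threshold itself. With at least 1, 37.5% of the sites tested were higher and 17.0% lower at 60 min against input. With at least 50, 23.1% were higher and 22.9% lower. At 30 min these shares were 48.9% and 12.4%, and 27.6% and 22.3%. Between times they were 8.12% and 18.0%, and 4.08% and 7.10%. The shares at the main filter are given above.

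Merging within 10 nt split the main end of CFL1, which then held 65.5% at 60 min and 57.3% at 30 min, against 59.6% in input, and put that of TMSB10 at 99.7% in input. With at least 5 counts and no share minimum, ACTG1 had 7 sites, PFN1 3 and TMSB10 3. With positions under 1% of the site left out, the 15 mean shifts stayed within their 95% intervals. At 30 min against input, 2 of them changed sign, to -0.0028 nt for ACTB and -0.014 nt for PFN1, both with intervals that include 0. No replicate could be left out, and no paired analysis was possible because each group has 1 library. Minor ends rest on few counts, at the far upstream site in the PFN1 window on 11 at 60 min and 14 at 30 min, against 0 in input.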
